A study of Mus musculus with 8 samples.

Results

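The genes of the mitochondrial ribosomal proteins were followed in the tissue labelled brown adipose tissue (BAT) of mice injected with *Porphyromonas gingivalis*. The members were the 77 genes whose array name begins with *Mrpl* (48 genes, large subunit) or *Mrps* (29 genes, small subunit) followed by a digit, out of 37074 gene names on the array. The rule used names alone and no measured value, and pseudogene names were left out. Male C57BL/6J mice, 12 weeks old, received 1 intravenous injection of 100 μL of saline (Co mice, n = 4) or of sonicated *P. gingivalis* suspended in saline (Pg mice, n = 4; the sample labels print the dose as 108 CFU, in which the 8 is an exponent of 10), and the tissue was taken 18 h later. No mouse carried a transgene by the labels. RNA of each mouse was hybridized to 1 Agilent one-color array, on which brightness depends on the probe as well as on the amount of RNA.

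Mitochondria keep their own ribosome, which translates the few proteins encoded by mitochondrial DNA, all of them subunits of the respiratory chain and ATP synthase. Its ribosomal RNAs come from mitochondrial DNA, whereas its proteins are made from nuclear genes in the cytosol and imported. Some of these proteins descend from bacterial ribosomal proteins and others exist only in mitochondria. BAT is rich in mitochondria, which burn fuel for heat through uncoupling protein 1.

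The members had 119 probes, of which 111 were tested and 8 were well above background on none of the 8 arrays. For each gene the probe with the highest mean signal was used. All 77 of these probes were well above background on all 8 arrays. Signals were quantile-normalized and are given on the log2 scale, and a log2 fold change is the mean of the 4 Pg arrays minus the mean of the 4 Co arrays. Tests were limma's moderated test with Benjamini-Hochberg q-values over all 33819 probes tested.

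Facts of the whole array touch these values. The Co arrays each had 34760 to 35831 probes well above background and the Pg arrays each 31132 to 34063. The single slide held Co in its first row and Pg in its second, so slide position and group cannot be told apart. The labelled tissue was checked against markers. *Ucp1*, *Elovl3*, *Bmp8b* and *Slc27a2* were above background on no array, 8 of 12 brown adipocyte genes could be tested (log2 of the list's summed signal on each array 13.62 to 13.82 in Co and 13.53 to 13.81 in Pg), and all 14 skeletal muscle genes were above background on every array (21.45 to 21.55 in Co and 21.42 to 21.54 in Pg). These ranges overlap between the groups, as do those of adipocyte (17.34 to 17.43 and 17.24 to 17.54), macrophage (11.99 to 12.53 and 11.74 to 13.08), neutrophil (15.29 to 15.61 and 15.53 to 15.75), red blood cell (18.89 to 19.60 and 17.78 to 19.63) and endothelial genes (13.27 to 13.62 and 13.55 to 13.70). The sums rest on the brightest genes of each list. For muscle these lie at the top ranks, where quantile normalization fixes the value. *Tnnt3* was at 18.84 and *Tnni2* at 18.81 on every Pg array (SD 0). The muscle sums could therefore hardly differ, and their overlap does not show equal muscle content. All 5 tested neutrophil genes were higher in Pg mice, among them *S100a8* (log2 fold change 2.16, q = 0.132 by limma) and *S100a9* (2.04, q = 0.195 by limma). All 7 red blood cell genes were lower (-0.80 to -0.41, none with a q under 0.1), and all were lowest on Pg array 3. *Hba-a1*, for one, had 17.35, 17.85, 16.57 and 18.34 on the Pg arrays against a Co mean of 17.93. Of 6 endothelial genes 3 were higher and 3 lower, with *Kdr*, a receptor, the 1 that passed the test (0.57, q = 0.0573 by limma; 16.7% of the list, against 7.82% of all tested probes) and *Pecam1*, an adhesion molecule, at -0.20 (q = 0.151 by limma). Of the other lists, 12 of 14 skeletal muscle genes were lower (median -0.032), 6 of 7 macrophage genes higher (0.25), 8 of 10 adipocyte genes higher (0.073) and 5 of the 8 tested brown adipocyte genes lower (-0.069), and none had a q under 0.1. Of the brown adipocyte genes, 2 had an unadjusted p under 0.05 by limma, both higher, *Dio2* (0.59) and *Lhx8* (0.31). Single arrays stood apart in some genes. *Myh4*, a muscle gene, was at 11.38 on Pg array 1 and 13.38 on Co array 3 (Co mean 15.73, Pg mean 14.96). *Cidec*, an adipocyte gene, was at 12.25 on Co array 2 and 11.81 on Pg array 1 (Co mean 10.65, Pg mean 10.66). The part of these genes in the members' values was not tested. In such bulk RNA fewer cells of a type and less RNA per cell cannot be told apart.

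The mitochondrial ribosomal protein genes moved little. Of the 77 members, 41 were higher and 36 lower in Pg mice, and the median log2 fold change was 0.0089 against -0.040 over all tested probes and -0.014 over all genes with 1 probe each. With scaling to the 75th percentile the balance turned, to 34 higher and 43 lower with a median of -0.024, against -0.020 over all tested probes. Over the 8 fits on 7 arrays the members' median ran from -0.0030 (without Co array 4, 38 higher and 39 lower) to 0.013, and it was 0.00018 without Co array 2. It was -0.010 with the mean of each gene's probes and -0.013 in the authors' normalized values, so its sign was not stable. *Mrpl2* was the 1 member that passed a q of 0.1, and it rose (1.30% of members, against 7.82% of all tested probes in either direction, 7.19% of the 13013 tested probes in the members' range of signal, 1.82% of all probes called higher and 6% called lower). None of the 77 passed the study's threshold for a differentially expressed gene, a q under 0.1 and a fold above 1.5, which 1.61% of all probes did in the present fit (546 probes). The study, with its own fit, reported fewer such genes. At an unadjusted p under 0.05 there were 11 members by limma, 5 higher and 6 lower, which is 14.3% of members against 22.8% of all probes.

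The intervals bound how far these genes could have moved on these arrays. The 95% interval of the fold change lay within 1.5-fold in either direction for 77 of 77 members, and for 93.1% of the tested probes in their range of signal. It lay within 1.25-fold for 71 of the 77 (92.2%), against 62.0% of those probes. The 6 others were *Mrps11*, *Mrps17*, *Mrpl32*, *Mrpl50*, *Mrps2* and *Mrpl2*. The median SD between mice of a group was 0.060 log2 units for the members and 0.093 for the tested probes in that range, and the SD of the log2 fold changes over genes was 0.095 and 0.17. Sharing a range did not make the sets equally bright: members centred on 13.40 and those probes on 11.16 (medians). Members were also read from each gene's brightest probe. Among all tested probes, 27.6% had intervals within 1.25-fold under a signal of 12, 70.1% from 12 to 14 and 81.1% at 14 or more. Members reached 81.2%, 94.1% and 96.3%, and under 12 they were still brighter (medians 11.48 and 7.47). The part of brightness in these gaps was not tested.

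**Figure D1:**
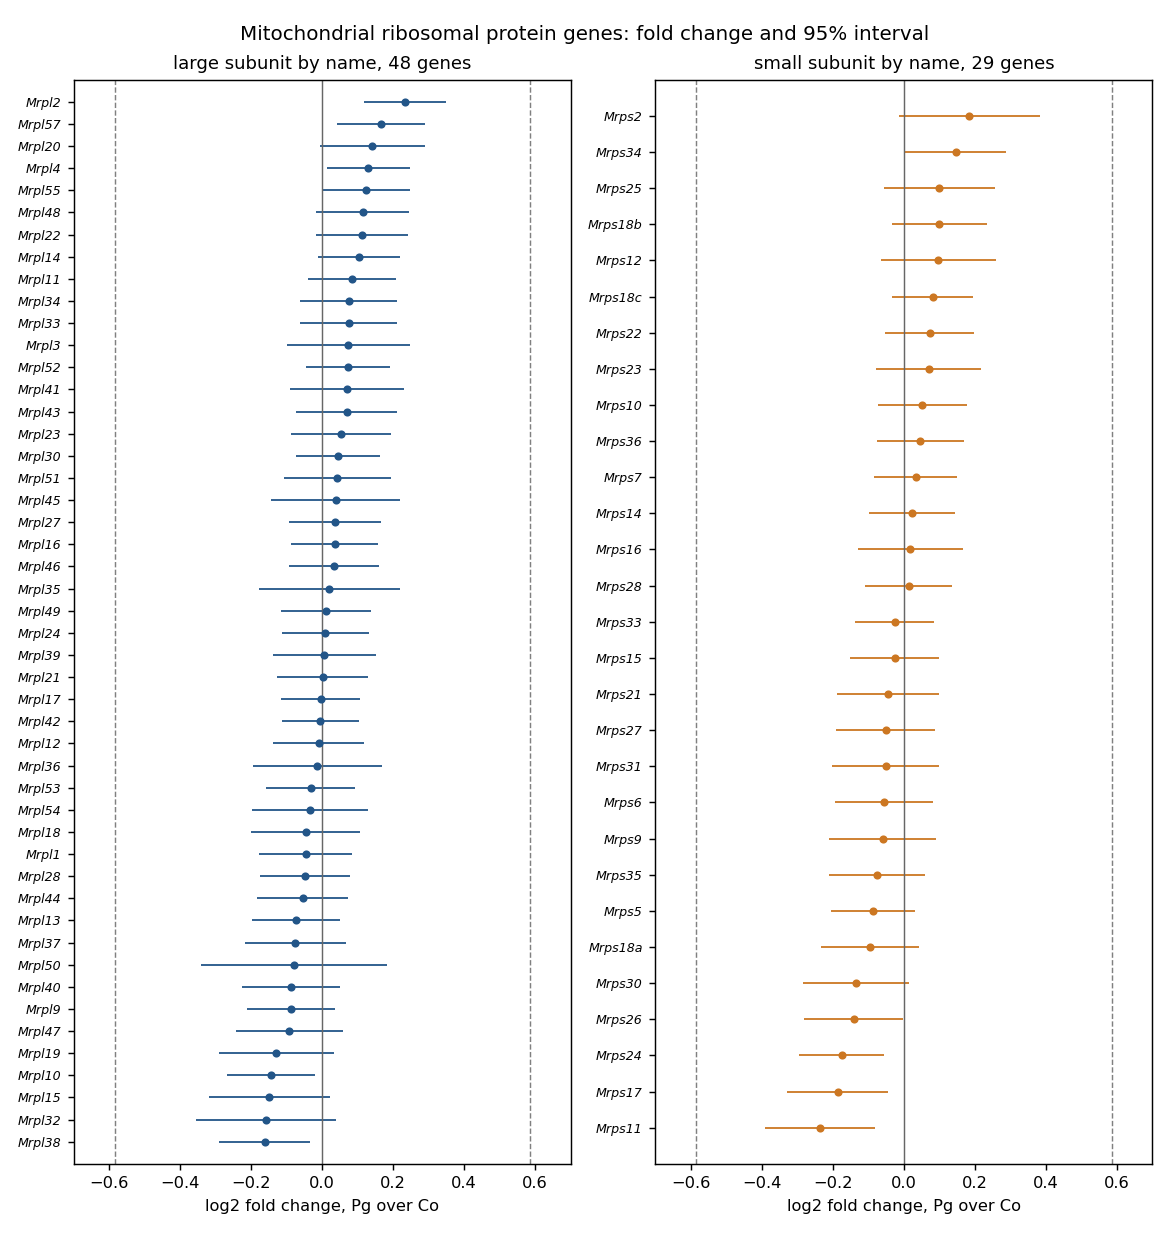
Log2 fold change of Pg over Co mice (x axis) for each of the 48 large subunit and 29 small subunit genes, sorted by value. Points are limma estimates from 4 arrays per group and bars their 95% intervals; the dashed lines mark 1.5-fold in either direction, and every bar lies between them.

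*Mrpl2*, the relative of a conserved bacterial protein that sits next to the peptidyl transferase centre of the large subunit, lies on chromosome 17 (GRCm38.p6, 46646172 to 46650132). Its normalized log2 signals were 14.49, 14.50, 14.52 and 14.57 on the Co arrays and 14.73, 14.80, 14.75 and 14.72 on the Pg arrays. Every Pg array was above every Co array. The fold change was 1.18 (95% interval 1.09 to 1.27), a log2 fold change of 0.23 ± 0.050 (SE), with a q of 0.0627 by limma. Without any 1 of the Co arrays, or without Pg array 1, 2 or 4, the q was between 0.101 and 0.139. The 1 probe of *Mrpl2* ends in a stretch that holds AATAAA, the usual polyadenylation signal, in capitals here (last 30 of 60 bases, mm9, chr17:46787021-46787080, plus strand). The first of its 3 overlapping promoters in the RefSeq table of GRCm38.p6 (chr17:46645971-46646270, plus strand) is shown because *Mrpl2* was the 1 member that passed the test, with the last 50 bases, from that promoter's start site on, in capitals. The start of the gene given above lies before these capitals.
Mrpl2 probe, last 30 bases: ctggactctAATAAAatgtctcttgttttt
Mrpl2 promoter: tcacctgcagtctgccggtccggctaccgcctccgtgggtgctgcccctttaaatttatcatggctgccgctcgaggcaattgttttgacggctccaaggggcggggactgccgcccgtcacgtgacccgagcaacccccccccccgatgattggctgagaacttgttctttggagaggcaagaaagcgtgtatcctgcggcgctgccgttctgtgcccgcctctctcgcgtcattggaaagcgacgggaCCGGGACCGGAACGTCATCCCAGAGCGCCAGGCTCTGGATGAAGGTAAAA

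Below *Mrpl2* the highest fold changes did not pass the test. *Mrps2*, of the small subunit, had signals of 11.45, 11.41, 11.57 and 11.20 on the Co arrays and of 11.69, 11.54, 11.59 and 11.55 on the Pg arrays (log2 fold change 0.18 ± 0.086, q = 0.251 by limma). The groups overlapped, since Co array 3 was above Pg arrays 2 and 4. The log2 fold change was 0.12 without Co array 4, 0.011 with the mean of its 2 probes and 0.021 in the authors' normalized values. *Mrpl57*, a large subunit protein found only in mitochondria, had 14.53, 14.50, 14.46 and 14.41 in Co and 14.63, 14.64, 14.59 and 14.70 in Pg mice (0.17 ± 0.054, q = 0.129 by limma). *Mrps34*, a small subunit protein found only in mitochondria, had 14.46, 14.47, 14.49 and 14.29 in Co and 14.56, 14.60, 14.54 and 14.60 in Pg mice (0.15 ± 0.062, q = 0.213 by limma). *Mrpl20*, whose bacterial relative binds the large ribosomal RNA early in assembly, had 14.26, 14.35, 14.38 and 14.16 in Co and 14.47, 14.39, 14.43 and 14.42 in Pg mice (0.14 ± 0.063, q = 0.234 by limma). In the last 3 genes no Pg array was below a Co array. On the median signal *Mrps34* was at 0.075 and *Mrpl20* at 0.22, and *Mrps34* was at 0.071 in the authors' normalized values.

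The lowest fold changes included 3 genes of the small subunit with bacterial relatives. *Mrps11*, a protein of the platform, had signals of 10.74, 10.79, 10.75 and 10.81 on the Co arrays and of 10.48, 10.47, 10.70 and 10.49 on the Pg arrays. All Pg arrays were lower, and Pg array 3 lay close to the Co arrays. Its log2 fold change was -0.24 ± 0.067, a fold of 0.849 (95% interval 0.762 to 0.945), and its q of 0.102 by limma just missed the threshold; without Pg array 3 it was -0.29 with a q of 0.0669 by limma. *Mrps17* had 13.44, 13.55, 13.55 and 13.44 in Co and 13.39, 13.21, 13.32 and 13.31 in Pg mice (-0.19 ± 0.061, q = 0.134 by limma). *Mrps24*, a protein at the entry of the mRNA channel, had 13.41, 13.42, 13.49 and 13.41 in Co and 13.32, 13.20, 13.25 and 13.26 in Pg mice (-0.18 ± 0.052, q = 0.111 by limma). Neither gene had overlapping groups.

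In the large subunit, *Mrpl38*, which sits in the central protuberance and exists only in mitochondria, had 11.87, 11.84, 11.82 and 11.84 in Co and 11.59, 11.68, 11.77 and 11.69 in Pg mice (-0.16 ± 0.056, q = 0.145 by limma), without overlap, and was at -0.25 in the authors' normalized values. *Mrpl32*, which a mitochondrial protease trims before it joins the ribosome, had 12.28, 12.37, 12.53 and 12.40 in Co and 12.20, 12.07, 12.31 and 12.36 in Pg mice (-0.16 ± 0.085, q = 0.309 by limma). Its groups overlapped, and the log2 fold change was -0.10 without Pg array 2, -0.092 on the median signal and -0.095 in the authors' normalized values. Over all members, the groups did not overlap in 13 genes (16.9%), 8 of them higher and 5 lower in Pg mice. The share was 15.8% of all tested probes and 19.3% of those in the members' range of signal.

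**Figure D2:**
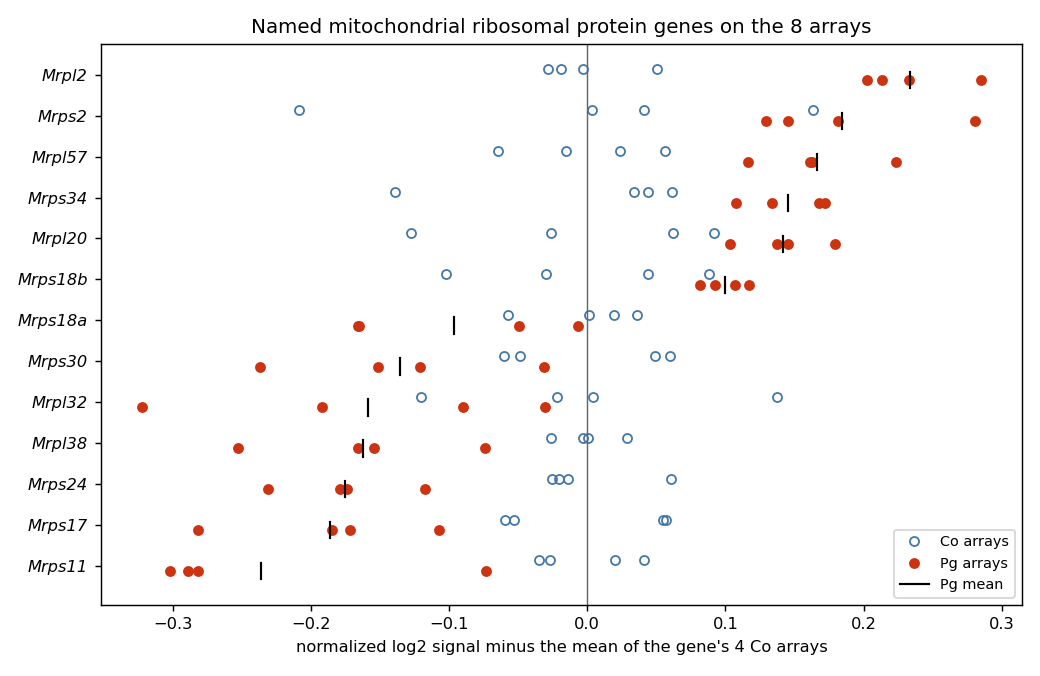
Normalized log2 signal of 13 named members on each array, minus the mean of the gene's 4 Co arrays (x axis, log2 units); open circles are Co arrays, filled circles Pg arrays and the bar their mean. The 4 Pg arrays of *Mrpl2* lie above all Co arrays, whereas the groups of *Mrps2*, *Mrps18b*, *Mrps18a*, *Mrps30* and *Mrpl32* overlap.

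By subunit, the large subunit genes were higher in Pg mice in 27 and lower in 21 of 48 (median log2 fold change 0.010), and the small subunit genes were higher in 14 and lower in 15 of 29 (median -0.026). With scaling to the 75th percentile the large subunit median was -0.022 and the small subunit median -0.052. The large subunit median was 0.0021 without Co array 2 and 0.025 without Co array 3. The small subunit median was -0.0074 without Co array 3 and -0.00060 with normexp background correction. In the main fit the medians differed by 0.036, and the same difference varied between arrays of a group with an SD of 0.022. It was 0.020 without Co array 2 and 0.014 with normexp background correction. Array by array, the large subunit median lay between -0.016 and 0.037 log2 units from the Co mean on the Co arrays and between -0.013 and 0.048 on the Pg arrays. The small subunit median lay between -0.031 and 0.036 on the Co arrays and between -0.050 and -0.0027 on the Pg arrays. In both subunits the arrays of the groups overlapped, and no test between the subunits was made.

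The names do not follow the structures in every case. *Mrps18a* and *Mrps30* carry small subunit names, and their proteins are found in the large subunit of the mammalian ribosome. *Mrps30* had 12.68, 12.56, 12.57 and 12.67 in Co and 12.59, 12.50, 12.38 and 12.47 in Pg mice (-0.14 ± 0.064, q = 0.258 by limma), and *Mrps18a* had 14.03, 14.02, 14.05 and 13.96 in Co and 13.97, 13.85, 14.01 and 13.85 in Pg mice (-0.097 ± 0.060, q = 0.373 by limma). In both genes the groups overlapped. *Mrps36*, now known as a part of the α-ketoglutarate dehydrogenase complex, had a log2 fold change of 0.046 (q = 0.640 by limma). With the first 2 counted as large subunit genes and *Mrps36* left out, the medians of the subunits differed by 0.014.

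By origin, the 48 genes with bacterial relatives had a median log2 fold change of 0.011 (26 higher, 22 lower) and the 28 found only in mitochondria one of 0.00042 (14 higher, 14 lower). Of 7 genes placed around the exit of the peptide tunnel 5 were higher (-0.079 to 0.11), and of 7 in the central protuberance 4 (-0.16 to 0.11). These lists are not complete, and the first leaves out *Mrpl17* (-0.0047), *Mrpl47* (-0.093) and *Mrpl32* (-0.16), all lower. Of the stalk, which recruits translation factors, *Mrpl10* was at -0.14, *Mrpl12* at -0.010 and *Mrpl11* at 0.084. *Mrps12*, the relative of a bacterial protein of the decoding centre, was at 0.096 ± 0.070. No gene of these 4 places passed the test.

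The brighter members tended to be higher in Pg mice. Of the 27 members with a mean log2 signal of 14 or more, 19 were higher and 8 lower (median log2 fold change 0.053), of 34 between 12 and 14 there were 17 and 17 (-0.0056), and of 16 under 12 there were 5 and 11 (-0.068). The medians of all tested probes in the same classes were 0.011, 0.0077 and -0.054. Over the 77 members, fold change and signal had a Pearson r of 0.41 and a Spearman rho of 0.47, against 0.13 and 0.19 over all 33819 tested probes. These are descriptions across genes of the same 8 arrays, and genes are not independent replicates. Scaling to the 75th percentile gave medians of 0.017, -0.042 and -0.086 for the 3 classes, in the order from bright to dim. With normexp background correction the bright class stood at 0.039, and the middle and dim classes at -0.029 and -0.030, and on the median signal without background subtraction these 2 stood at -0.023 and -0.026. Without Pg array 2 the dim class was at -0.040, and without Co array 3 at -0.045.

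**Figure D3:**
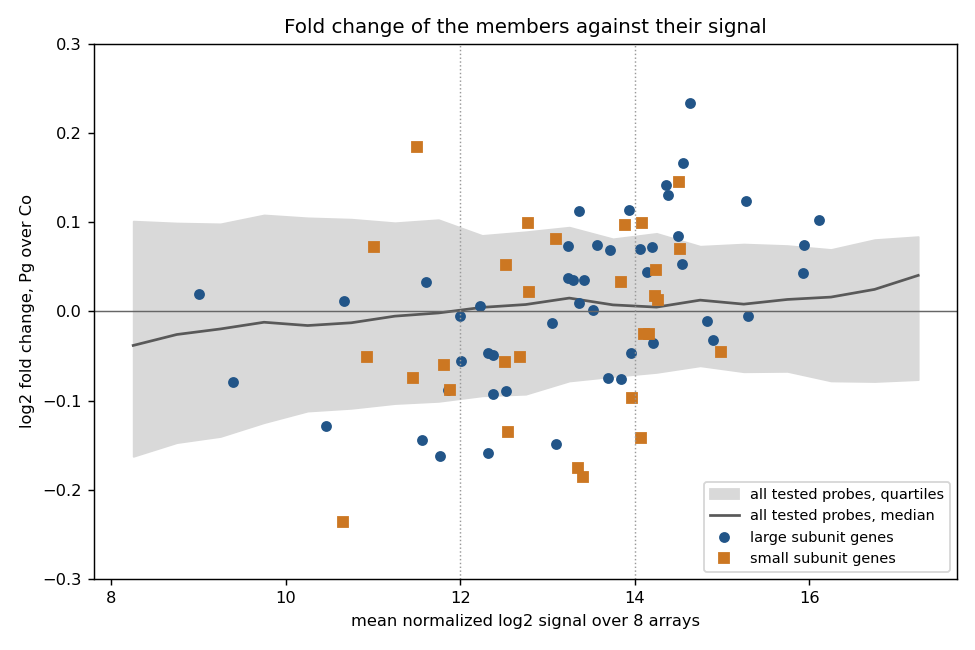
Log2 fold change of Pg over Co mice (y axis) against the mean normalized log2 signal over 8 arrays (x axis) for the 77 members; the grey line and band are the median and quartiles of all tested probes in steps of 0.5 log2 units, and dotted lines mark 12 and 14. Of the 27 members at 14 or more, 19 lie above 0.

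The bright members included *Mrpl14* (0.10), *Mrpl55* (0.12), *Mrpl4* (0.13), *Mrpl33* (0.074) and *Mrps23* (0.070), none of which passed the test, and at the low end of the class *Mrps26* (-0.14). The median over the 27 genes, taken on each array as the distance from the Co mean, lay between -0.0073 and 0.014 on the Co arrays and between 0.035 and 0.080 on the Pg arrays, without overlap. For all 1867 tested probes of that brightness it lay between -0.0056 and 0.011 on the Co arrays and between -0.0034 and 0.021 on the Pg arrays. In the class of 14 or more the large subunit had a median of 0.072 (13 of 17 higher) and the small subunit one of 0.015 (6 of 10 higher).

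**Figure D4:**
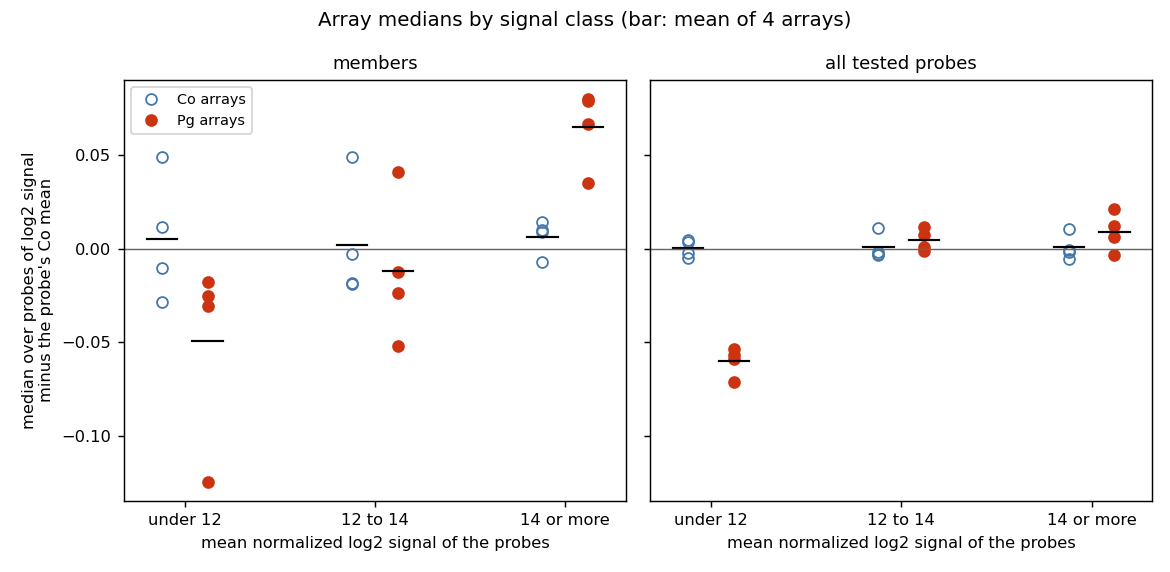
Median over probes of the log2 signal minus the probe's Co mean (y axis, log2 units) on each array, in 3 classes of mean log2 signal (x axis), for the members (left) and all tested probes (right); bars are means of 4 arrays. Among members of 14 or more, the 4 Pg arrays lie between 0.035 and 0.080 and the Co arrays between -0.0073 and 0.014.

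The value of a gene depended on which of its probes was read. Of 28 members with several tested probes, the dimmest probe gave a lower log2 fold change than the brightest in 21, and 12 had probes of opposite sign. Among the 34 tested probes that were not the brightest of their gene, 29 were lower in Pg mice and 3 passed a q of 0.1, all lower (8.82%, against 7.82% of all tested probes, of whose 2644 calls 2028 were lower): a probe of *Mrpl47* (-0.31, q = 0.0922 by limma), a probe of *Mrpl38* (-0.27, q = 0.0796 by limma) and a probe of *Mrps18b* (-0.20, q = 0.0979 by limma). With 1 array left out, the *Mrpl38* probe passed in 1 of 8 fits and the other 2 in 0, with q up to 0.200 by limma. Of 9 other alternatives the *Mrpl47* probe passed in 3, and its log2 fold change was -0.16 with normexp background correction (q = 0.127 by limma) and -0.16 without normalization between arrays.

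*Mrps18b*, 1 of 3 mammalian genes related to the same bacterial protein, is an example. Its brightest probe had 14.01, 14.13, 14.08 and 13.94 in Co and 14.15, 14.12, 14.16 and 14.13 in Pg mice (0.099 ± 0.058, q = 0.347 by limma), with overlap. A second probe that shares 55 bases with it gave 0.067, whereas the probe 732 bases upstream on the same transcript was the 1 that fell. The downstream probe (mm9, chr17:36047331-36047390, minus strand, position 992 of the transcript) is given by its last 30 bases, and the upstream probe (chr17:36051313-36051461, minus strand, position 260) in full, beside the upstream probe of *Mrpl38* (chr11:115995816-115996277, minus strand, position 626). The coordinates of both upstream probes span more than their 60 bases, and AATAAA is again in capitals wherever it occurs.
Mrps18b downstream probe, last 30 bases: agcttttatacAATAAAgctgtgtctcttc
Mrps18b upstream probe: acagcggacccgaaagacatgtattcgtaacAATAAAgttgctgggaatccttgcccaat
Mrpl38 upstream probe: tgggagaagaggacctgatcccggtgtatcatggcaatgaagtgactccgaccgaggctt

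The same order held in every member compared here. Probes closer together or listed under different transcripts were left out of the comparison, and some of these had the other order, such as those of *Mrps18c*. In 16 genes, 2 tested probes lay on the same RefSeq transcript at least 100 bases apart (128 to 933 bases), and in 16 of 16 the probe nearer the 5′ end had the lower log2 fold change, by a median of 0.12. In *Mrps2* the upstream probe gave -0.16 and the downstream probe 0.18, and in *Mrpl22*, at the tunnel exit, they gave -0.16 and 0.11. In *Mrps17* they gave -0.193 and -0.186. The upstream probe was also the dimmer one in 15 of 16, *Mrps33* being the exception.

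Among other genes the pairs were counted by RefSeq transcript. The probe nearer the 5′ end had the lower log2 fold change in 70.9% of 4460 pairs and in 73.7% of the 1332 pairs in the signal range of the member pairs. In that range it was 77.9% where the upstream probe was the dimmer one and 49% where it was the brighter one. The median over the 16 pairs, as upstream minus downstream probe relative to the Co mean, lay between -0.040 and 0.021 on the Co arrays and between -0.19 and -0.098 on the Pg arrays. For the 1332 pairs of other genes it lay between -0.0057 and 0.0061 on the Co arrays and between -0.13 and -0.069 on the Pg arrays. The number of probes above background was also lower on every Pg array than on every Co array, and the part of this and of probe brightness in the order of the probes was not tested.

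**Figure D5:**
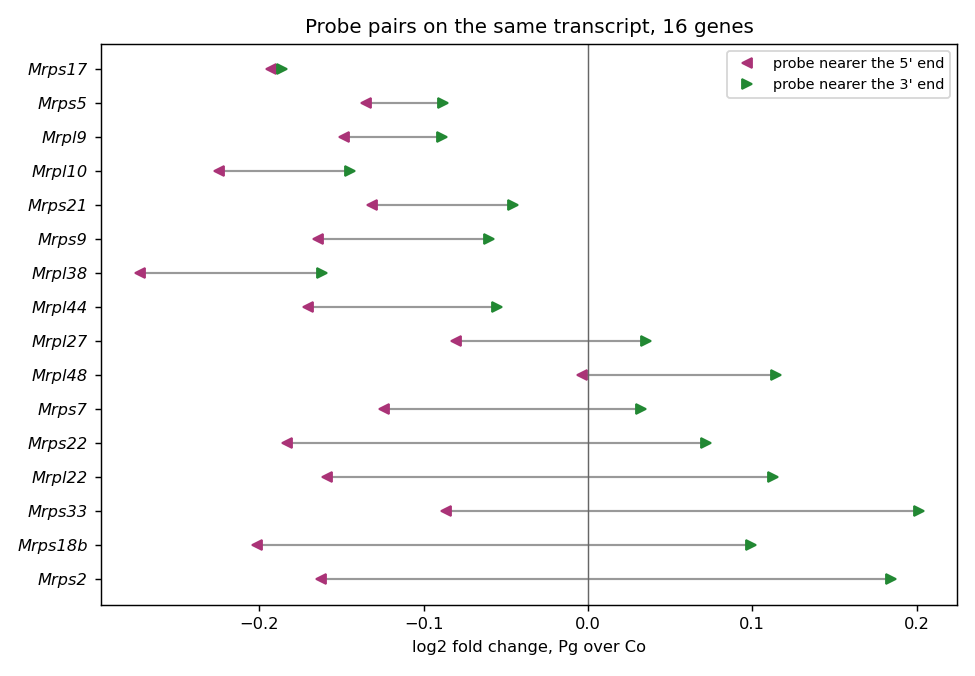
Log2 fold change of Pg over Co mice (x axis) from 2 probes on the same transcript in 16 members; triangles pointing left are the probes nearer the 5′ end and triangles pointing right those nearer the 3′ end. The 5′ probe lies to the left in 16 of 16 genes.

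The probes used for the members held AATAAA in 20 of 77 genes (26%), and the members' other tested probes in 7 of 34 (20.6%), against 10.6% of the 33707 tested probes of other genes. The first share is of the brightest probe of each gene and the last of all tested probes. Of these 20 members, 15 were higher and 5 lower in Pg mice (median log2 fold change 0.062), and of the other 57 there were 26 higher and 31 lower (-0.010). The mean log2 signal had a median of 14.08 in the first group and of 13.29 in the second. The letters alone do not show that a probe lies at the end of a transcript, and the relation was not tested.

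Promoters of 68 members were found in the RefSeq table of GRCm38.p6 (250 bases before and 50 after each start site). They were searched on both strands for 4 short motifs of factors known for nuclear genes of mitochondrial proteins. The NRF1 core GCGCATGC was in 11.8% of these members and in 3.05% of all 27025 genes of the table. The relaxed NRF1 form GCNTGCGC, which also matches every core, was in 32.4% and 11.2%. The GABPA core CCGGAAGT was in 17.6% and 4.31%, and the YY1 core AAGATGGCG in 11.8% and 1.64%. At least 1 of the 4 was in 38 of the 68 (55.9%), against 15.7% of all genes, and base composition was not matched. The median log2 fold change was 0.016 for members with a motif and 0.013 for those without, but it was 0.070 and 0.0041 with and without the GABPA core (12 members with it) and -0.064 and 0.033 with and without the YY1 core (8 members with it). These values were not tested. The *Mrpl2* promoter held none of the 4 sequences in this window.

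A further 6 mitochondrial ribosomal proteins carry other names, and 4 of them were higher in Pg mice. *Aurkaip1*, a small subunit protein, had 14.98, 15.01, 15.07 and 15.10 in Co and 15.13, 15.19, 15.22 and 15.35 in Pg mice (0.18 ± 0.065, q = 0.161 by limma). *Chchd1*, also of the small subunit, had 15.29, 15.35, 15.29 and 15.35 in Co and 15.37, 15.50, 15.49 and 15.49 in Pg mice (0.14 ± 0.054, q = 0.175 by limma). Neither overlapped between the groups (33.3% of the 6 genes, against 15.8% of all tested probes), and neither passed the test. *Dap3* (0.00071), *Gadd45gip1* (0.046), *Ict1* (-0.0056) and *Ptcd3* (-0.034) were near 0.

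Of 24 genes of mitochondrial ribosome assembly and rRNA modification, 12 were higher and 12 lower, and 2 passed the test, both lower (8.33%, against 7.82% of all probes in either direction and 6% called lower). *Mettl17*, an assembly factor of the small subunit, had 8.46, 8.40, 8.43 and 8.47 in Co and 8.13, 8.14, 8.18 and 8.31 in Pg mice (-0.25 ± 0.059, q = 0.0710 by limma). *Rbfa*, which matures the small subunit, had 11.41, 11.30, 11.25 and 11.33 in Co and 11.09, 11.07, 11.19 and 11.07 in Pg mice (-0.22 ± 0.059, q = 0.0919 by limma). Both genes were lower on every Pg array than on any Co array. With 1 array left out, *Mettl17* passed without Pg array 4 (-0.29, q = 0.0884 by limma) and *Rbfa* without Pg array 3 (-0.25, q = 0.0921 by limma), and neither in the other 7 fits (q up to 0.143 and 0.178 by limma). *Mettl17* also lost its call with scaling to the 75th percentile (q = 0.102 by limma) and without normalization between arrays (0.348). *Rbfa* lost it on the median signal (q = 0.13 by limma), with no filter on dim probes (0.117) and without normalization (0.317).

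Of 16 translation factors, 8 were higher and 8 lower, and 1 passed the test, lower in Pg mice (6.25%, against 7.82% of all probes in either direction and 6% called lower). *Guf1*, a GTPase that acts on the elongating mitochondrial ribosome, had 9.07, 9.18, 9.13 and 9.23 in Co and 8.90, 8.79, 8.91 and 8.80 in Pg mice (-0.30 ± 0.061, q = 0.0573 by limma), again without overlap. Without normalization between arrays its q was 0.224 by limma. It passed without Co array 1 (-0.33) and without Pg array 3 (-0.32), and in the other 6 such fits the q reached 0.131 by limma. Of 17 mitochondrial aminoacyl-tRNA synthetases, 6 were higher and 11 lower with 0 calls, and the farthest from 0 was *Nars2* (-0.18 ± 0.093, q = 0.301 by limma). Of 9 genes of mitochondrial DNA maintenance and transcription, 3 were higher and 6 lower with 0 calls, against the same 7.82% of all probes. There *Mgme1*, an exonuclease, was farthest from 0 (-0.20 ± 0.084, q = 0.216 by limma), next to *Tfam*, which packages mitochondrial DNA (-0.20 ± 0.062, q = 0.123 by limma).

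For comparison, 54 of 83 nuclear oxidative phosphorylation subunits were higher in Pg mice (median 0.039; 1 of 83 with a q under 0.1), and of 90 cytosolic ribosomal proteins 59 were higher (median 0.031; 1 called higher and 2 called lower, which is 3.33%), against 7.82% of all tested probes and 6.23% of genes with 1 probe each called. The member genes in the brightest class had a median of 0.053. These lists are brighter than the members as a whole, with median log2 signals of 16.66 and 15.69 against 13.40.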

How the data were processed

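Total RNA of 4 Co and 4 Pg mice was labelled with Cy3 (Low Input Quick Amp kit, 1 array per mouse) and scanned. The authors deposited the output of Agilent Feature Extraction 11.0.1.1, which holds the intensity of each spot, background-subtracted and detrended but not normalized between arrays, and a table of 28067 entries with their quantile-normalized log2 values. Its columns of the authors' own comparison, log2 fold changes, p-values and 2 score columns as deposited, were not used. Here the processed intensities of a probe were averaged, quantile-normalized, set to at least 1 and converted to log2 (R 4.3.3, limma 3.58.1, data.table version 1.17.8), and probes well above background on at least 4 of 8 arrays were tested with lmFit and eBayes, two-sided, and Benjamini-Hochberg adjustment. The fit was tested on simulated data.

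This gene family and the other lists were chosen for description with earlier results of these data known. Named members were those with a q under 0.1, the 5 highest and 5 lowest, genes whose probes disagreed in sign around a call, and *Mrps18a* and *Mrps30*; in the other lists, genes with a q under 0.1 or else the largest change. *Tfam*, *Chchd1*, *S100a8*, *S100a9*, *Kdr*, *Pecam1* and the further members given with a fold change only were chosen after their values were seen. Coordinates of probes are those of the scanner files (mm9), and the exon of each probe was not analysed here. The number of arrays limits the precision. Each array is 1 mouse, and 4 against 4 allow no exact permutation p under 0.0286.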

Additional observations from a re-analysis of the deposited data

Results flagged for a closer look

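In 3 of the 26 groups of 4 arrays of the named members, 1 array stood apart from the other 3 by Dixon's test at the 95% level; chance flags about 1 in 20 groups, and over all members it was 9 of 154. *Mrps11* was at 10.70 on Pg array 3, with the other Pg arrays between 10.47 and 10.49. *Mrps24* was at 13.49 on Co array 3, with the others between 13.41 and 13.42. *Mrps34* was at 14.29 on Co array 4, with the others between 14.46 and 14.49.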

How the results depend on the processing

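No member passed both a q of 0.1 and a fold of 1.5 under any of the alternatives, and every log2 fold change of *Mrpl2* stayed above 0 (0.19 to 0.29). The other counts moved. Beside *Mrpl2*, normexp background correction called *Mrpl20* higher (2 higher) and *Mrps11*, *Mrps17* and *Mrps24* lower (3 lower; 10.2% of all probes called), and the median signal without background subtraction called *Mrpl20* higher (2 higher) and *Mrps17* and *Mrps24* lower (2 lower; 9.06% of all probes), with a large minus small difference of 0.0097. Requiring all 8 arrays above background and array weights each called *Mrps11* and *Mrps24* lower (2 lower; 10.3% and 8.63% of all probes), and the mean over the probes of a gene and the authors' normalized values each called *Mrpl38* lower (1 lower; 4.29% of genes and 6.11% of entries). *Mrpl2* lost its call with scaling to the 75th percentile (q = 0.108 by limma, 0 higher, 4.57% of all probes; member median -0.024) and without normalization between arrays (q = 0.232 by limma, 0 higher, 0.0858% of all probes). The cause was not tested. Without 1 array the members called numbered 0 to 1 higher and 0 to 1 lower, while 0.00607% to 7.16% of all probes were called; *Mrpl2* kept its call without Pg array 3 alone (q = 0.0912 by limma), where *Mrps11* was called too.

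The replicate numbers did not pair the arrays (correlations of same-numbered arrays -0.068 to 0.18); with the replicate block 0 members were called (0 higher; *Mrpl2* q = 0.145 by limma), as were 0% of all probes. With the dimmest probe of each gene, an alternative chosen after seeing the data, the member median was -0.032, the large minus small difference 0.070, and *Mrpl47* and *Mrps18b* were called lower (2 lower). Signs turned for *Mrps18b* (-0.20 with the dimmest probe, -0.011 with the mean of its probes, -0.077 in the authors' values), *Mrps18a* (0.21 with the dimmest probe, 0.056 with the mean) and *Mrps2* (-0.16 with the dimmest probe, against 0.011 with the mean and 0.021 in the authors' values). The probe pairs, the signal classes and the AATAAA count were also chosen after seeing the data; the upstream probe was the lower one in 14 to 16 of 16 pairs over 17 alternatives. The 8 member probes above background on no array gave no value.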
